A study of Mus musculus with 50 samples.

Results

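The 10 genes described here, Spink1, Tmem86a, Arhgap10, Limch1, Fam83a, S100g, Setbp1, Fam46a, Cspg5 and Rgs2, are genes of mouse liver, none of them on a list of macrophage markers, that differed by diet. They were selected on a small p for diet in non-tumour liver, and they are 10 of the 45792 genes of the table. Because the diet difference in those livers chose them, it is given below as a description with no test, and the question asked of them is whether a diet difference was also seen in tumours that the choice did not use. RNA was sequenced from livers and liver tumours of male C3H/He mice, of the substrain C3H/HeNHsd or C3H/HeNCrl, harvested at 48 weeks. The paper, which does not describe mice given a carcinogen, gives 48 weeks as the age at killing and not as time on diet. The ALIOS diet is rich in fat and trans-fat and is given with fructose in the drinking water, and the other mice ate a control diet. Some mice also received diethylnitrosamine (DEN), a liver carcinogen whose dose is not given in the sources used, while the other tumours arose without it and are called spontaneous. The groups were 12 control-diet and 11 ALIOS-diet non-tumour livers, 5 control-diet and 8 ALIOS-diet DEN tumours, 12 spontaneous ALIOS-diet tumours, and T7, the 1 spontaneous tumour on the control diet. Livers are named N and tumours T, with the number of the library. It is not stated which tumours and livers came from the same mouse.

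Among 50 libraries, T1, a spontaneous ALIOS-diet tumour, holds kidney transcripts and was left out, so 49 were used. Its 6 kidney markers summed to 28484 counts per 1e+06 counts, most of them Kap at 22972, while the highest of the other libraries, T9, summed to 21.9, nearly all Slc12a1. T24, an ALIOS-diet DEN tumour, stood apart from its group in its markers of other cell types. Results for the 10 genes that rest on it are also given without it, while those for relatives and cell type markers are given only with it. Total counts per library ran from 23968280 to 35091968 in control-diet livers, 27602194 to 34682875 in ALIOS-diet livers, 23798251 to 38199013 in spontaneous ALIOS-diet tumours, 29683887 to 36606868 in control-diet DEN tumours and 28727716 to 45751398 in ALIOS-diet DEN tumours, and T7 held 34140765. Levels are counts per 1e+06 counts (CPM) scaled by TMM normalisation factors. A gene counted as called at an adjusted p under 0.05 in edgeR's quasi-likelihood test, with the Benjamini-Hochberg adjustment over all genes tested. The p-values set each difference against the spread between these samples, with each tumour taken as an independent sample. Whether all DEN tumours came from different mice is not stated. All 10 genes passed the filter on low counts in each comparison.

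The genes belong to different processes. Spink1 is a secreted Kazal-type trypsin inhibitor best known from the pancreas, and Cspg5 is a transmembrane chondroitin sulfate proteoglycan of the brain with an EGF-like domain. Tmem86a is a lysoplasmalogenase and a target of the liver X receptors (LXR), the sterol-sensing nuclear receptors that control lipid genes in liver, while S100g, also known as calbindin-D9k, is a small calcium-binding protein regulated by vitamin D. Rgs2 speeds GTP hydrolysis by Gq alpha subunits and so shortens signalling from hormone receptors, Arhgap10 acts in signalling to the cytoskeleton, Limch1 activates non-muscle myosin II, and Fam83a is a scaffold that binds casein kinase 1 and acts in EGF receptor signalling. Setbp1 is a nuclear protein that binds SET, and Fam46a, now named Tent5a, is a non-canonical poly(A) polymerase.

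Promoter sequence from RefSeq (build GRCm38.p6), from 250 bases before to 50 bases after the start, matched 5 of the 10 genes in 8 windows. Arhgap10, Fam83a, Cspg5, Spink1 and Setbp1 had no entry. The windows of Tmem86a (chr7:47050390-47050689, plus strand), S100g (chrX:162964550-162964849, minus strand) and Rgs2 (chr1:144004100-144004399, minus strand) are shown as examples from genes higher in DEN tumours than in liver that have 1 window each. Limch1 with 3 windows and Fam46a with 2 were also higher there and also hold matches, and are not shown. The motifs searched on both strands were TATAAA (the letters of a TATA box), TGACG (the core of the cAMP response element) and AGGTCA (the nuclear receptor site), and capitals mark each match, with the opposite strand's match in its reverse complement. TATAAA was in 13.6% of all 32851 windows of this length, TGACG in 20.8% and AGGTCA in 16.3%, and no match of 1 motif overlapped another in the windows of these genes.
Tmem86a: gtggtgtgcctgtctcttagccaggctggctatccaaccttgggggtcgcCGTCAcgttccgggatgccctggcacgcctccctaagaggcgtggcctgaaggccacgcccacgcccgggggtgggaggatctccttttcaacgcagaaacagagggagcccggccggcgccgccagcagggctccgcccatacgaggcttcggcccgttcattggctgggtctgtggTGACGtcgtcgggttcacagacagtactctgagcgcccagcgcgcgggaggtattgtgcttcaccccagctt
S100g: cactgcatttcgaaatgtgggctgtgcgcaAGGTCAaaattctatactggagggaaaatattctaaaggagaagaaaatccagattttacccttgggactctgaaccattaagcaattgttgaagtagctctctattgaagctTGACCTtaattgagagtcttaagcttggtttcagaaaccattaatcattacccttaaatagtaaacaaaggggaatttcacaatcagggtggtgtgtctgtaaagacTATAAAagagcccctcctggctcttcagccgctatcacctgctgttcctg
Rgs2: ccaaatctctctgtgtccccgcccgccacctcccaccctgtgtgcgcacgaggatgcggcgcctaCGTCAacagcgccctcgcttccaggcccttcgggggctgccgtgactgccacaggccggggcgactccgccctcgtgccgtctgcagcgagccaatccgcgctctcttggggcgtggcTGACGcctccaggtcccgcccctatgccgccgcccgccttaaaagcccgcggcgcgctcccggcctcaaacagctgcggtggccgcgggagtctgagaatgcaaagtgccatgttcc
The Tmem86a window held TGACG at bases 51 to 55 on the opposite strand and 229 to 233 on the same strand. The S100g window held TATAAA at bases 251 to 256 and AGGTCA at bases 31 to 36, both on the same strand, and AGGTCA again at 144 to 149 on the opposite strand. The Rgs2 window held TGACG at bases 66 to 70 on the opposite strand and 184 to 188 on the same strand. A match is a description of letters, not a bound site.

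The 10 genes lie on 7 autosomes and chromosome X of GRCm38 (Gencode M21), each annotated as protein coding. Spink1 (43728082 to 43737557) and Setbp1 (78750380 to 79109391) are on chromosome 18, Fam46a (85320439 to 85327348) and Cspg5 (110243783 to 110262576) on chromosome 9, Rgs2 (143999338 to 144004161) on 1, Limch1 (66745827 to 67057158) on 5, Tmem86a (47050601 to 47054777) on 7, Arhgap10 (77250366 to 77517953) on 8, Fam83a (57985419 to 58011009) on 15 and S100g (162961992 to 162964599) on X. The table has 11 entries for the 10 genes, because Setbp1 has a second entry whose count is 0 in every library. Arhgap10 shares 324 exon bases, 10.5% of its exon length, with the antisense gene 0610038B21Rik, whose level ranged from 0 to 0.645 CPM over the groups. The strand option used in counting is not stated, so how reads over these bases were assigned is unknown. S100g lies opposite Ctps2 and shares 0 exon bases with it.

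In control-diet livers the genes covered a wide range of levels. Per kilobase of exon, the median level was highest for the lipid gene Tmem86a at 7.31 CPM per kb, followed by Fam46a at 3.32, Rgs2 at 0.767, Spink1 and then Fam83a at 0.533, Arhgap10 at 0.398, S100g at 0.223, Cspg5 at 0.188, Limch1 at 0.0323 and Setbp1 at 0.0307 CPM per kb. Limch1 and Setbp1 were thus close together at the bottom of the order, and neighbours such as Spink1 and Fam83a differed by less than the spread between livers. In control-diet DEN tumours the order changed, with Spink1 at the top at a median of 122 CPM per kb, Tmem86a at 55.8, Rgs2 at 21.6 and Fam46a at 12.7 CPM per kb.

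**Figure D1:**
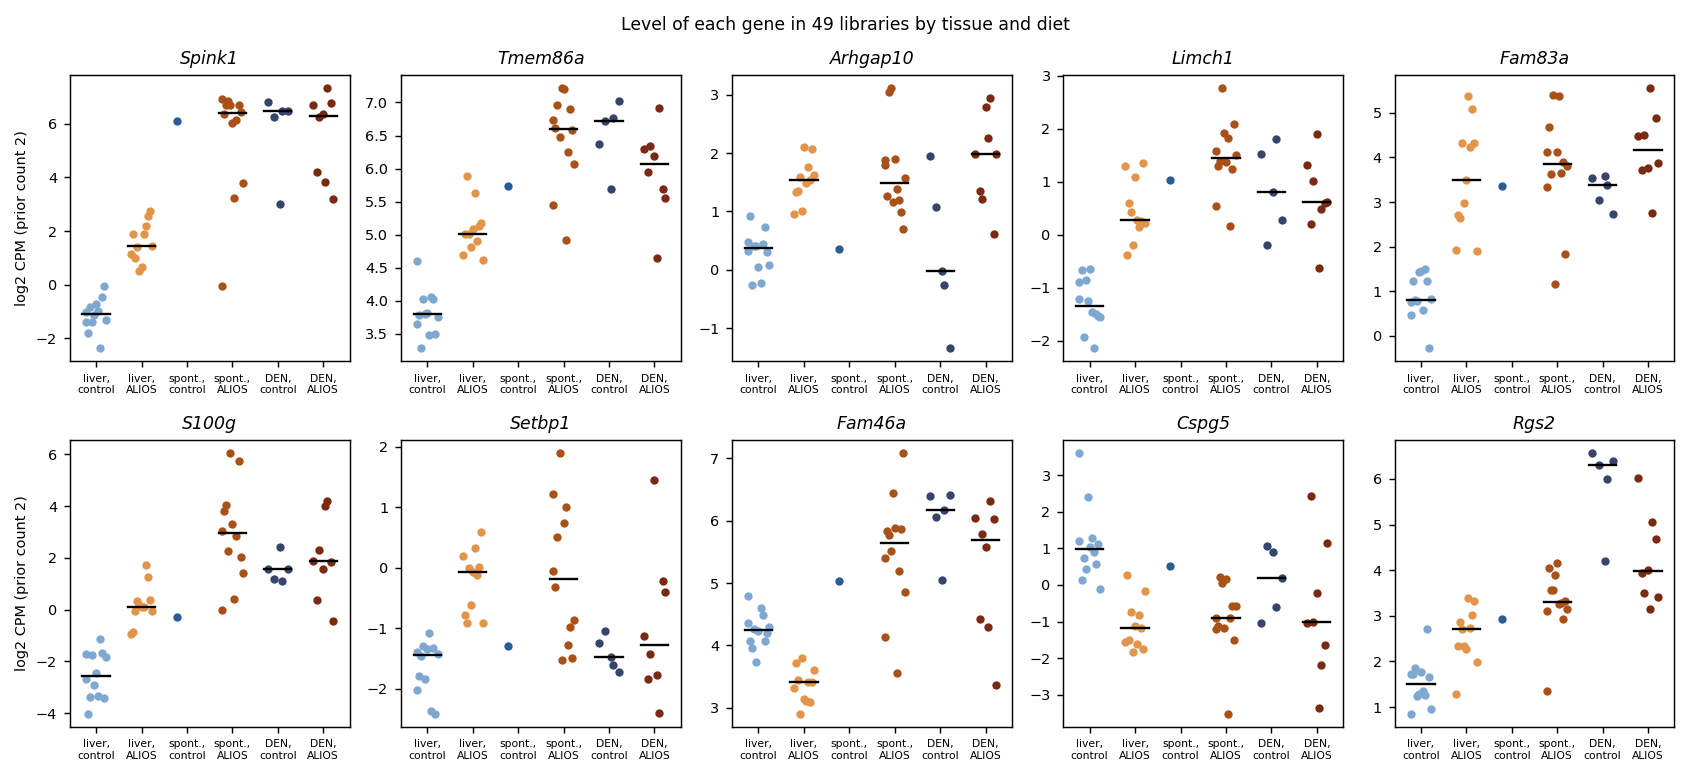
Level of each of the 10 genes in every library, as log2 CPM, in 6 groups, with a bar at each group's median. Spink1, Tmem86a, S100g, Fam46a and Rgs2 sit higher in most tumours than in livers. The difference between the livers by diet is the one on which the genes were chosen, so it is a description.

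In non-tumour liver, the contrast that chose the genes, 8 of them were higher and 2 lower on the ALIOS diet. The secreted inhibitor Spink1 ranged from 0.132 to 0.920 CPM in control-diet livers with a median of 0.414, and from 1.36 to 6.65 CPM with a median of 2.64 in ALIOS-diet livers. Cspg5 ran the other way, from 0.869 to 12.1 CPM with a median of 1.90 on the control diet and from 0.221 to 1.15 with a median of 0.378 on the ALIOS diet. The Spink1 values did not overlap between the diets, while 10 of 11 ALIOS-diet livers were below every control-diet liver for Cspg5, whose 2 highest control-diet livers were N12 at 12.1 and N11 at 5.20 CPM. Tmem86a, the LXR target, ranged from 9.64 to 24.2 CPM with a median of 13.8 in control-diet livers and from 24.4 to 59.4 with a median of 32.2 in ALIOS-diet livers. The calcium-binding S100g ranged from 0, in N9, to 0.397 CPM with a median of 0.107 on the control diet and from 0.453 to 3.22 with a median of 1.02 on the ALIOS diet. Neither gene's values overlapped between the diets, although the lowest ALIOS-diet liver was close to the highest control-diet liver for both.

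Among the signalling and cytoskeletal genes, Fam83a ranged from 0.761 to 2.75 CPM with a median of 1.69 in control-diet livers and from 3.66 to 41.3 with a median of 11.2 in ALIOS-diet livers. N17, the highest for Fam83a, was also the highest ALIOS-diet liver for cholangiocyte (220 CPM, median 46.2), stellate cell and fibroblast (255 CPM, median 85.6) and T cell markers (13.1 CPM, median 6.16), and their part in its level was not tested. Arhgap10 ranged from 0.770 to 1.83 CPM with a median of 1.23 on the control diet and from 1.88 to 4.25 with a median of 2.84 on the ALIOS diet. Limch1 ranged from 0.166 to 0.578 CPM with a median of 0.331 on the control diet and from 0.703 to 2.50 with a median of 1.16 on the ALIOS diet. None of these 3 genes had livers of the different diets at overlapping levels. Rgs2 ranged from 1.75 to 6.44 CPM with a median of 2.78 on the control diet and from 2.37 to 10.5 with a median of 6.53 on the ALIOS diet. It was the gene with the most overlap, with 6 of 11 ALIOS-diet livers above every control-diet liver. The nuclear protein Setbp1 ranged from 0.127 to 0.414 CPM with a median of 0.306 on the control diet and from 0.472 to 1.44 with a median of 0.889 on the ALIOS diet, and its groups did not overlap. N19, the highest liver for Spink1, Limch1 and Setbp1, was also the highest for macrophage markers (681 CPM, ALIOS-diet median 347), whose part was not tested. N1 and N10, the lowest and highest control-diet livers for Rgs2, were also the lowest (151 CPM) and highest (406 CPM) there for macrophage markers. On ALIOS, N13 was the lowest for both (217 CPM), and N17, the highest for Rgs2, was at 519 CPM. The part of macrophages in the Rgs2 levels was not tested either. Fam46a ranged from 13.2 to 27.5 CPM with a median of 18.9 on the control diet and from 7.45 to 13.9 with a median of 10.6 on the ALIOS diet, so that 10 of 11 ALIOS-diet livers were below every control-diet liver.

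The log2 fold changes of ALIOS over control diet in liver, given as the measure behind the choice, were 3.05 for Fam83a (8.25-fold), 3.05 for S100g (8.26-fold), 2.88 for Spink1 (7.34-fold), 1.95 for Limch1 (3.87-fold), 1.64 for Setbp1 (3.11-fold), 1.27 for Tmem86a (2.41-fold), 1.26 for Arhgap10 (2.39-fold), 1.07 for Rgs2 (2.09-fold), -0.92 for Fam46a and -2.63 for Cspg5. In the order of p over 13723 genes, 7 of the genes took ranks 1 to 7, Setbp1 was at rank 11, Cspg5 at 30 and Rgs2 at 167. Apoa4 (rank 8, log2 fold change 1.20), an unnamed gene (rank 9, 2.71) and Ucp2 (rank 10, 1.41) fell between them without being among the 10, and the neighbours of Rgs2 were Hectd2 (rank 166, -0.69) and Abcc4 (rank 168, 0.85). In this contrast 1542 genes, 11.2% of those tested, were called, and all 10 genes are among the highest 167 ranks because the choice put them there. Macrophage markers moved with this contrast: 10 of 15 were called, all higher on ALIOS, and their summed level had a median of 226 CPM (151 to 406) in control-diet livers and 347 CPM (217 to 681) in ALIOS-diet livers, with Clec4f the most abundant and none at 0. Markers of other cell types moved too: T cell markers were called higher in 2 of 3 tested, cholangiocyte markers in 2 of 5 and stellate cell and fibroblast markers in 2 of 7, and the 1 acinar marker tested, Cela1, was called lower (log2 fold change -0.70). None of the 10 genes is on the macrophage list, and the part of any of these cell types in their levels was not tested. In bulk tissue, fewer cells of a type and less RNA per cell cannot be told apart.

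In the DEN tumours the diet difference was tested, with 8 tumours on the ALIOS and 5 on the control diet. No gene of the 10 was called. Of the 3 with the smallest p, Rgs2 had lower values on ALIOS, the opposite of liver, and Fam83a and Arhgap10 had higher values, the same direction as in liver. Rgs2, the regulator of Gq signalling, was at 95.1, 63.5, 78.5, 84.5 and 18.2 CPM in the control-diet tumours T17, T18, T19, T20 and T21, and ranged from 8.81 (T24) to 64.6 (T15) CPM with a median of 15.7 in the ALIOS-diet tumours. All 8 ALIOS-diet tumours were below the control-diet median and 5 of 8 were below every control-diet tumour, with overlap through T21 on the control diet and T15, T16 (33.5 CPM) and T26 (25.5 CPM) on ALIOS. Its log2 fold change was -1.55 (SE 0.49, 95% interval -2.59 to -0.50), with an adjusted p of 0.392 in edgeR, an unadjusted edgeR p of 0.00690, and p = 0.0179 by a two-sided exact permutation test over the 1287 ways to split 13 tumours into 8 and 5. Fitting all 49 libraries together gave the same log2 fold change of -1.55 and an adjusted p of 0.0224, which was the lowest over the alternative settings and the only 1 to pass the threshold. Leaving out 1 tumour at a time gave log2 fold changes of -1.97 (without T15) to -1.39 (without T17), and -1.42 without T24, where the adjusted p of 0.259 was the lowest of the 13.

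The scaffold Fam83a was at 11.6, 10.3, 8.19, 6.57 and 11.996 CPM in T17 to T21 and ranged from 6.66 (T16) to 47.4 (T24) CPM with a median of 18.4 in the ALIOS-diet DEN tumours. The ALIOS-diet tumours were above every control-diet tumour in 7 of 8 cases, and T16 was at the bottom of the control-diet range. The log2 fold change was 1.13 (SE 0.39, 95% interval 0.30 to 1.96, 2.19-fold), with an adjusted p of 0.400 in edgeR, an unadjusted edgeR p of 0.0115 and an exact permutation p of 0.0443, and it was 0.84 without T24. Arhgap10 was at 3.79, 0.771, 2.04, 0.333 and 0.927 CPM in T17 to T21 and ranged from 1.46 (T26) to 7.61 (T16) CPM with a median of 3.88 on ALIOS. All 8 ALIOS-diet tumours were above the control-diet median and 5 of 8 above every control-diet tumour, while T17 and T19 on the control diet lay within the ALIOS range. The log2 fold change was 1.41 (SE 0.55, 95% interval 0.22 to 2.60, 2.66-fold), with an adjusted p of 0.489 in edgeR, an unadjusted edgeR p of 0.0232 and an exact permutation p of 0.0124, and it was 2.05 without T17 and 1.38 without T24. T17 was the highest control-diet DEN tumour for stellate cell and fibroblast (463 CPM) and macrophage (357 CPM) markers, whose part in its level was not tested.

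**Figure D2:**
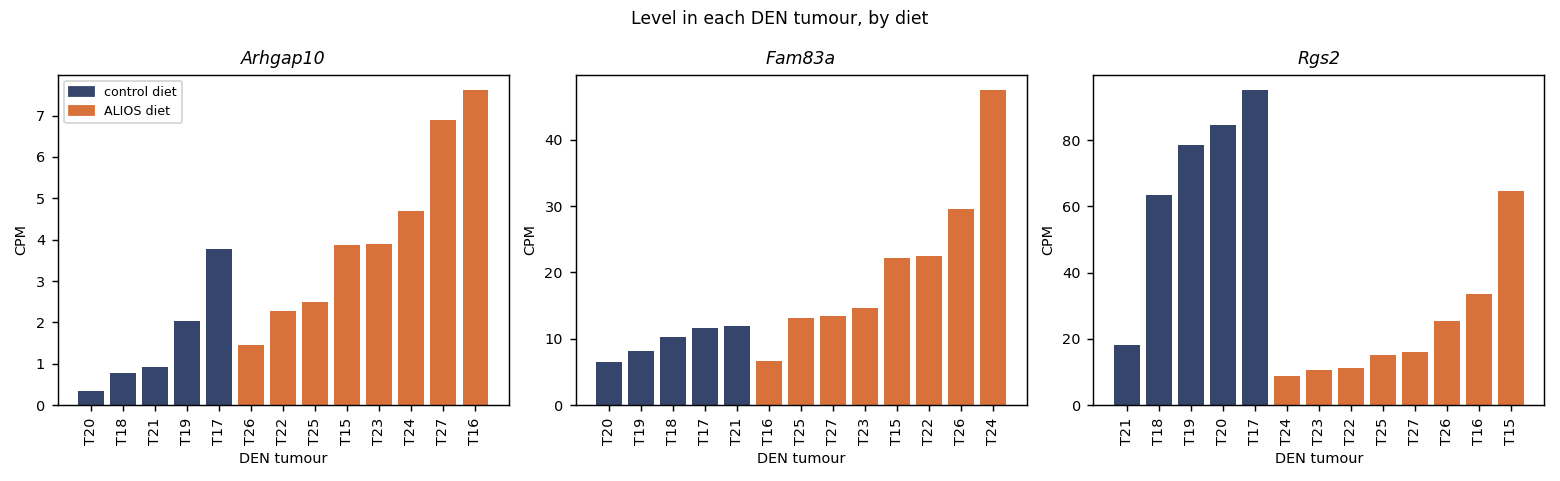
Level in CPM of Arhgap10, Fam83a and Rgs2 in each DEN tumour, 1 bar per tumour, by diet. For Rgs2 all 5 control-diet tumours, the lowest being T21 at 18.2 CPM, stand above 5 of 8 ALIOS-diet tumours. For Fam83a 7 of 8 ALIOS-diet tumours stand above all 5 on the control diet.

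The other 7 genes showed wide overlap between the diets in DEN tumours. Spink1 was at 113, 89.3, 75.6, 89.5 and 8.09 CPM in T17 to T21 and ranged from 9.18 (T23) to 163 (T16) CPM with a median of 78.8 on ALIOS, with a log2 fold change of -0.06 (95% interval -1.53 to 1.41). The diets overlapped over most of that range, T16 on ALIOS being above every control-diet tumour, with T21 on the control diet and T23, T24 (14.2 CPM) and T25 (18.3 CPM) on ALIOS far below the others. Without 1 tumour the sign of this value turned in some cases, from -0.35 (without T16) to 0.14 (without T17), and 0.0976 without T24. Cspg5 was at 0.428, 0.593, 2.04, 1.09 and 1.80 CPM in T17 to T21 and ranged from 0.0355 (T24) to 5.37 (T25) CPM with a median of 0.432 on ALIOS. Its 2 highest tumours, T25 and T23 (2.14 CPM), and its 4 lowest were all on ALIOS, so its log2 fold change of -0.00 (95% interval -1.58 to 1.58) became -0.96 without T25, 0.27 without T19 and 0.19 without T24, and limma voom gave -1.15 and the mean difference of log2 CPM -0.86. Tmem86a was at 82.8, 109, 105, 130 and 51.3 CPM in T17 to T21 and ranged from 25.01 (T24) to 121 (T16) CPM with a median of 67.4 on ALIOS, with a log2 fold change of -0.50 (95% interval -1.16 to 0.17) that was -0.37 without T24. Its values were below the control-diet median in 7 of 8 ALIOS-diet tumours, the direction opposite to liver.

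S100g was at 2.86, 2.11, 2.20, 2.91 and 5.33 CPM in T17 to T21 and ranged from 0.669 (T23) to 18.4 (T16) CPM with a median of 3.61 on ALIOS. The ALIOS-diet tumours lay on both sides of the control-diet group, 2 above and 2 below all of it, and T16 and T24 (15.8 CPM) were far above the rest. Its log2 fold change was 1.07 (95% interval -0.42 to 2.56), 0.61 without T16 and 0.72 without T24, and limma voom gave 0.43 and the mean difference of log2 CPM 0.41. Limch1, the myosin activator, was at 2.80, 3.44, 0.810, 1.15 and 1.68 CPM in T17 to T21 and ranged from 0.586 (T24) to 3.68 (T27) CPM with a median of 1.46 on ALIOS, with a log2 fold change of -0.18 (95% interval -1.10 to 0.75) that was -0.43 without T27, 0.12 without T18, -0.0151 without T17 and -0.0442 without T24. Each diet thus held both high and low tumours for Limch1. Setbp1 was at 0.362, 0.267, 0.421, 0.242 and 0.301 CPM in T17 to T21 and ranged from 0.127 (T16) to 2.66 (T27) CPM with a median of 0.353 on ALIOS. T27 alone was far above the other tumours, the next being T26 at 0.801 CPM, and the log2 fold change of 1.10 (95% interval -0.32 to 2.52) was 0.32 without T27, 0.47 with limma voom and 0.46 as the mean difference of log2 CPM. Fam46a was at 84.4, 72.3, 66.7, 85.1 and 33.0 CPM in T17 to T21 and ranged from 10.2 (T23) to 79.7 (T16) CPM with a median of 51.4 on ALIOS, with a log2 fold change of -0.57 (95% interval -1.49 to 0.35). As in liver, its values tended to the lower side on ALIOS, 3 of 8 tumours being below every control-diet tumour.

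**Figure D3:**
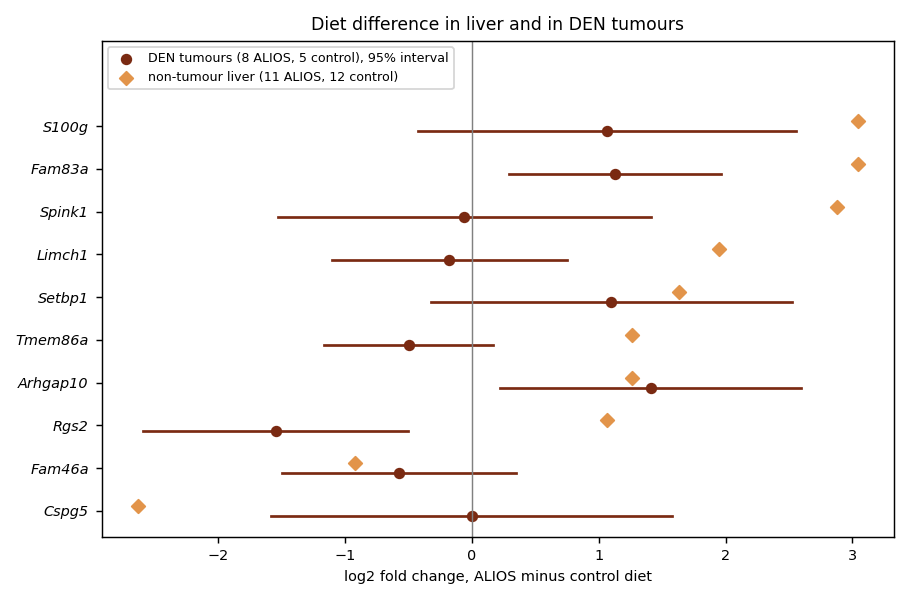
Log2 fold change of ALIOS over control diet for each of the 10 genes in DEN tumours, as points with 95% intervals, with the value in non-tumour liver as diamonds. The interval holds the liver value for Arhgap10, Setbp1 and Fam46a, and Rgs2, Spink1, Tmem86a and Limch1 lie on the other side of 0 from their liver values, for Rgs2 with an interval that does not reach 0.

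By edgeR, 0 of the 10 genes were called for diet in DEN tumours, beside 2 of 14944 genes tested (0.0134%), so the count of 0 is near the background. At an unadjusted p under 0.05 edgeR gave 3 of the 10 and 1273 of all genes. DESeq2 called 0 of the 10 and 155 of all genes, limma voom 0 and 2, the exact permutation test 0 and 0, and the fit of all 49 libraries 1 (Rgs2) and 296 of 17728. The exact permutation test could reach a p of 0.000777 at the smallest, and its smallest adjusted p over all genes was 0.323. Both genes called by edgeR, chosen for naming with their values known, were lower on ALIOS: Nmrk1, a nicotinamide riboside kinase, ranged from 8.93 to 20.1 CPM on ALIOS and 31.6 to 41.5 on the control diet (log2 fold change -1.41, SE 0.18, adjusted p 0.0342), and the kinase Sik1 from 14.7 to 23.96 and 29.0 to 37.0 CPM (-0.85, SE 0.12, adjusted p 0.0410). The count of 2 became 19 without T22, 14 without T24, 1 without T20, T25 or T26, and 0 without T15, T16, T17, T18, T19, T21, T23 or T27, while the count among the 10 genes was 0 without any 1 of the 13 tumours.

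Set beside liver, with which the DEN tumours share no library, the diet difference in DEN tumours had the liver's sign for 6 of the 10 genes (60%), beside 6887 of 13506 genes tested in both tissues (51.0%), 857 of 1508 genes called in liver (56.8%) and 85 of the 161 genes ranked at or above Rgs2 (52.8%). The 6 were Arhgap10, Fam83a, S100g, Setbp1, Fam46a and, at a value that is 0 to 2 decimals, Cspg5, whose sign turned with RLE factors and whose value was -1.15 with limma voom. The count was 8 without T18 and 5 at the lowest. Signed by the liver direction, the median log2 fold change in DEN tumours was 0.29 over the 10 genes and 0.0061 over all genes. The median size of the log2 fold change was 1.79 in liver, where the choice favours large values, and 0.82 in DEN tumours. The 95% interval in DEN tumours held the liver value for 3 genes (Arhgap10, Setbp1 and Fam46a) and 0 for 7, and for Setbp1 and Fam46a it held both. For Spink1, Tmem86a, Limch1, Fam83a, S100g, Cspg5 and Rgs2 the interval did not reach the liver value, but the difference between the tissues was not tested, since the liver contrast chose the genes.

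Between DEN tumours and non-tumour liver, with both diets given the same weight so that the diet difference cancels, 7 of the 10 genes rose and none fell. The livers are those that chose the genes, so their spread, which a small p for diet favours when it is low, enters the SE and p given here. Spink1 rose most: every one of the 5 control-diet DEN tumours, from 8.09 to 113 CPM, was above every control-diet liver, whose highest was 0.920 CPM, and every ALIOS-diet DEN tumour, from 9.18 to 163 CPM, was above every ALIOS-diet liver, whose highest was 6.65 CPM. Its log2 fold change was 5.96 (SE 0.35, 62.4-fold, adjusted p 2.46e-16 in edgeR). S100g, from 0 to 0.397 CPM in control-diet livers and from 2.11 to 5.33 in control-diet DEN tumours, rose by 3.40 (SE 0.36, adjusted p 5.87e-10). On ALIOS 5 of 8 DEN tumours were above every liver for S100g. Rgs2, at most 6.44 CPM in control-diet livers and at least 18.2 CPM in control-diet DEN tumours, rose by 3.23 (SE 0.24, adjusted p 1.09e-13). On ALIOS 7 of 8 DEN tumours were above every liver for Rgs2, and T24 at 8.81 CPM lay within the liver range.

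Fam46a, which was lower on ALIOS in liver, rose by 2.03 on the log2 scale (SE 0.18, adjusted p 7.51e-12), and its DEN tumours were above every liver of the same diet in 5 of 5 cases on the control diet and 7 of 8 on ALIOS, the exception being T23 at 10.2 CPM. Tmem86a rose by 1.89 (SE 0.15, adjusted p 8.54e-13), with 5 of 5 control-diet and 5 of 8 ALIOS-diet DEN tumours above every liver of the same diet. Fam83a rose by 1.44 (SE 0.28, adjusted p 2.94e-05) and Limch1 by 1.41 (SE 0.22, adjusted p 1.45e-06). For each of them 5 of 5 control-diet but only 1 of 8 ALIOS-diet DEN tumours were above every liver of the same diet. Medians in livers and DEN tumours were 1.69 and 10.3 CPM on the control diet and 11.2 and 18.4 CPM on ALIOS for Fam83a. For Limch1 they were 0.331 and 1.68 CPM on the control diet and 1.16 and 1.46 CPM on ALIOS. The counts of DEN tumours above or below livers of the same diet rest on liver values on which the genes were chosen, so they are a description, and the test is the fit over both diets. Arhgap10 was at 0.49 (SE 0.22, adjusted p 0.0551) and was not called, but it was called without T18 (0.58, adjusted p 0.0294), T20 (0.62, 0.0109), T21 (0.56, 0.0350), T22 (0.52, 0.0445), T25 (0.52, 0.0459) or T26 (0.54, 0.0298), and was 0.18 without T17 (adjusted p 0.475). Setbp1 at -0.01 (95% interval -0.72 to 0.71) and Cspg5 at 0.09 (95% interval -0.78 to 0.97) were not called, and the sign turned for Setbp1 from -0.41 (without T27) to 0.07 (without T16) and for Cspg5 from -0.40 (without T25) to 0.20 (without T17). For Setbp1 5 of 8 ALIOS-diet DEN tumours were below every ALIOS-diet liver and 1 was above all. On the control diet 0 of 5 were below every liver and 1 was above all.

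**Figure D4:**
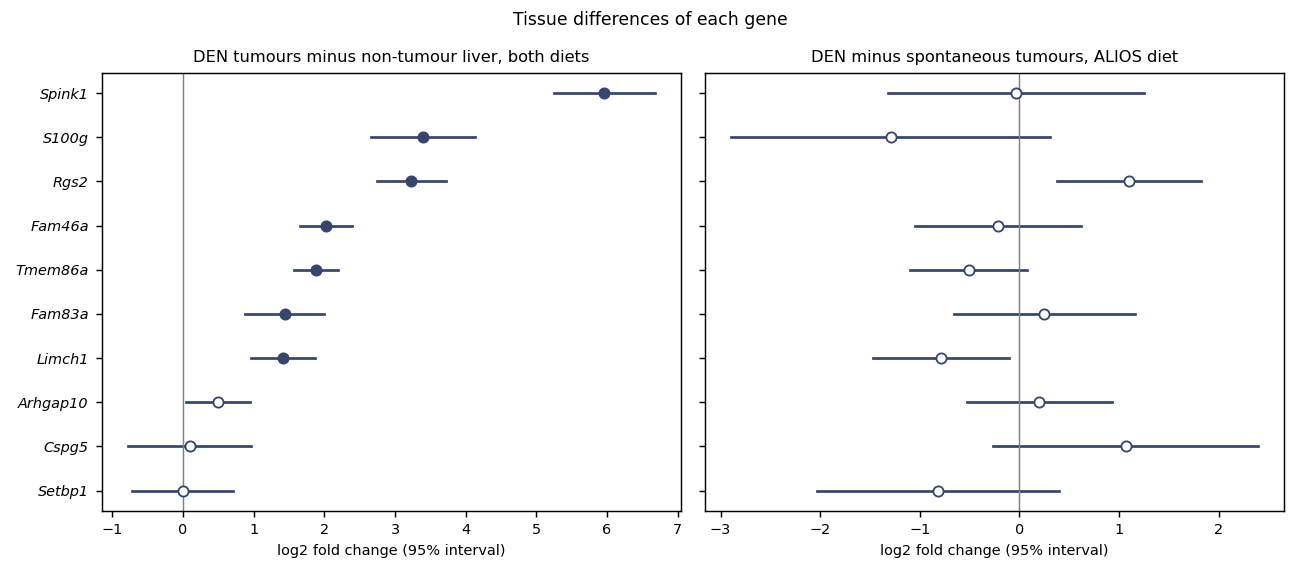
Log2 fold change with 95% interval of DEN tumours over non-tumour liver, both diets, and of DEN over spontaneous tumours on the ALIOS diet, with filled points for genes called at an adjusted p under 0.05. The 7 filled points are all in the comparison with liver, from 1.41 for Limch1 to 5.96 for Spink1.

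The share of 7 called in 10 stands beside 9818 of 15606 genes called (62.9%), so it is close to what all genes showed, and the 7 called higher stand beside 5524 genes called higher (35.4%). The median log2 fold change was 1.66 over the 10 genes and 0.07 over all genes. DESeq2, limma voom, RLE factors, the test with no filter and the fit of all 49 libraries each called 7 of the 10, as did edgeR without T24. All DEN tumours had DEN and no non-tumour liver is labelled as having had it, so within this comparison DEN and tumour tissue cannot be told apart. The levels in tumours that arose without DEN follow, as a description.

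Spontaneous tumours are described by their levels only, since with 1 tumour on the control diet the diet difference that chose the genes would not cancel against the livers. On ALIOS, Spink1 ranged from 0.901 (T2) to 122 (T14) CPM with a median of 85.0 in the 12 spontaneous tumours, and 11 of 12 were above every ALIOS-diet liver while T2 was below all of them. Fam46a ranged from 11.7 (T6) to 136 (T9) CPM with a median of 49.99, with 11 of 12 above every ALIOS-diet liver. T2 and T6, the lowest of these tumours for Spink1 and Fam46a, were also the lowest for hepatocyte markers. Those summed to 76770 CPM in T2 and 86623 CPM in T6, beside a group median of 174619 CPM, and their part was not tested. Tmem86a ranged from 30.1 to 150 CPM with a median of 96.7, with 10 of 12 above, and S100g from 0.939 to 66.5 CPM with a median of 7.64, with 9 of 12 above. These 4 genes were thus high in most spontaneous tumours, and S100g was far higher in T13 (66.5 CPM) and T12 (53.0 CPM) than in the others. Limch1 ranged from 1.06 to 6.77 CPM with a median of 2.68 (8 of 12 above every ALIOS-diet liver), and Rgs2 from 2.50 to 17.7 CPM with a median of 9.86 (5 of 12). Fam83a ranged from 2.18 to 42.0 CPM with a median of 14.4, Arhgap10 from 1.56 to 8.64 with a median of 2.74, Setbp1 from 0.285 to 3.67 with a median of 0.821 and Cspg5 from 0.0260 to 1.10 with a median of 0.472. For these last 4 genes at most 4 of 12 tumours were above every ALIOS-diet liver, and T4 held the highest level of Limch1, Fam83a, Arhgap10 and Setbp1 in its group. T7 on the control diet had Spink1 at 68.6, Tmem86a at 53.3, Fam46a at 32.8 and Rgs2 at 7.56 CPM, each above every control-diet liver, and Arhgap10 at 1.22, Setbp1 at 0.348 and Cspg5 at 1.36 CPM, each within the range of control-diet livers.

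Between DEN and spontaneous tumours on the ALIOS diet, which differ in the carcinogen and not in the diet, Rgs2 had the smallest p of the 10 genes. It ranged from 8.81 to 64.6 CPM in 8 DEN tumours and from 2.50 to 17.7 CPM in 12 spontaneous tumours, and 7 of 8 DEN tumours were above the spontaneous median, 3 of them above every spontaneous tumour. Its log2 fold change was 1.10 (SE 0.35, adjusted p 0.285 in edgeR), 0.68 without T15, and 1.11 with an adjusted p of 0.0369 when all 49 libraries were fitted together. Limch1 lay the other way at -0.78 (SE 0.33, adjusted p 0.553), with 7 of 8 DEN tumours below the spontaneous median. The other values were -1.29 for S100g, -0.82 for Setbp1, -0.51 for Tmem86a, -0.21 for Fam46a, -0.03 for Spink1, 0.20 for Arhgap10, 0.25 for Fam83a and 1.07 for Cspg5. Cspg5 was at 0.10 without T25 and 0.0203 with limma voom, S100g at -0.79 without T13, Setbp1 at -1.58 without T27 and -0.51 without T4, and Arhgap10 at 0.40 without T4 and 0.0218 without T16. With T1 put back Limch1 was at -1.43 and Setbp1 at -1.26, and the sign turned for Arhgap10, at -0.59. By edgeR 0 of the 10 genes and 0 of 14845 genes (0%) were called, and 2 and 1079 had an unadjusted p under 0.05. DESeq2 called 0 of the 10 and 75 of all genes, limma voom 0 and 0, and the fit of all 49 libraries 1 (Rgs2) and 403. The count over all genes was 15 without T22 and 8 without T4. The sign turned for Spink1 between -0.32 (without T16) and 0.14 (without T23), for Fam46a between -0.37 (without T16) and 0.0056 (without T9), and for Fam83a, at 0.44 without T4 and -0.0297 without T24.

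Genes related to the 10 by family or pathway, 104 in 10 lists with 103 in the table, were counted in the same comparisons. For diet in DEN tumours 0 of 71 tested were called by edgeR, with 5 at an unadjusted p under 0.05, and DESeq2 called 2, limma voom 0, the exact permutation test 0 and the fit of all 49 libraries 2 of 76. For DEN against spontaneous tumours edgeR called 0 of 70, with 5 at an unadjusted p under 0.05, DESeq2 0, limma voom 0 and the fit of all 49 libraries 2 of 76. In DEN tumours against liver 49 of 73 were called, 32 higher and 17 lower, with a median log2 fold change of 0.13 beside 0.07 over all genes, a share near the 62.9% of all genes. The examples that follow, up to 3 for each list by smallest p, were picked with their values known, and their edgeR adjusted p was 0.0141 or lower.

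Of the Kazal inhibitors and trypsins, 1 of 12 in the table was tested, and Spink5 rose by 0.65 (SE 0.23). None of the 12 passed the filter in liver alone, so Spink5 was tested only with tumours included, and its rise is a description. Of the ERBB receptors and neuregulins listed with Cspg5, 1 of 6 tested rose and 2 fell: the growth factor Nrg1 rose by 4.21 (SE 0.23), and the receptors Erbb4 and Egfr were at -2.08 (SE 0.44) and -1.11 (SE 0.34). Of the LXR genes and the Tmem86a relative, 5 of 15 rose and 5 fell, with lipoprotein lipase Lpl at 2.55 (SE 0.25), Tmem86b at -1.59 (SE 0.19) and the LXR alpha gene Nr1h3 at -0.37 (SE 0.06). Of the S100 and vitamin D genes, 4 of 12 rose and 3 fell, with the vitamin D receptor Vdr at 2.73 (SE 0.26), S100a11 at 2.34 (SE 0.24) and S100a1 at -1.50 (SE 0.15).

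Among relatives of the signalling genes, 7 of 17 tested RGS and Gq genes rose and 4 fell, with Rgs20 at 6.58 (SE 0.45), Rgs19 at 1.14 (SE 0.15) and Gna11 at 0.33 (SE 0.05). Beside 35.4% of all genes called higher, 5 of 5 tested Fam83a relatives rose (4 of 5 with RLE factors), with Fam83d at 2.48 (SE 0.34), Fam83g at 2.04 (SE 0.13) and Fam83e at 1.59 (SE 0.43), and 4 of 5 myosin and Limch1 relatives rose, with Myh9 at 0.81 (SE 0.12), Myl12a at 0.59 (SE 0.09) and Myl12b at 0.54 (SE 0.08). In liver alone 3 of the 7 Fam83a relatives and 11 of the 22 RGS and Gq genes passed the filter. Relatives tested only with tumours included may count as higher because of the filter, so no conclusion is drawn from 5 of 5 or from 7 of 17. Of the Setbp1 partners 2 of 5 rose, Kmt2a by 0.60 (SE 0.13) and Hcfc1 by 0.37 (SE 0.09), and of the Fam46a relatives the 1 tested, Fam46c, rose by 1.49 (SE 0.24).

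Markers of cell types were followed beside these results. Hepatocyte markers, with Alb the most abundant and none at 0 in any group, summed to a median of 122595 CPM (86750 to 139501) in control-diet livers, 109892 CPM (78157 to 142638) in ALIOS-diet livers, 178911 CPM (169669 to 203828) in control-diet DEN tumours and 169392 CPM (81499 to 226601) in ALIOS-diet DEN tumours. Tumours and livers thus both carried them at high levels. By gene, their median log2 fold change in DEN tumours against liver was -0.96, so the sum does not stand for each marker. Among DEN tumours T23 at 81499, T24 at 81758 and T25 at 94974 CPM had the lowest sums. The same 3 tumours were the lowest of the ALIOS-diet DEN tumours for Spink1 and Fam46a, and the part of hepatocyte content in those values was not tested. Macrophage markers summed to a median of 194 CPM (115 to 357) in control-diet and 246 CPM (136 to 618) in ALIOS-diet DEN tumours, with Lyz2 the most abundant, none at 0 and T24 the highest. Stellate cell and fibroblast markers, with Reln the most abundant and none at 0, summed to a median of 80.2 CPM (40.8 to 116) in control-diet livers, 193 CPM (145 to 463) in control-diet DEN tumours and 151 CPM (71.6 to 928) in ALIOS-diet DEN tumours, where T24 was again the highest. T24 was also the highest tumour of its group for Fam83a and the lowest for Rgs2, Tmem86a, Limch1 and Cspg5, and the part of its other cell types in those values was not tested.

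**Figure D5:**
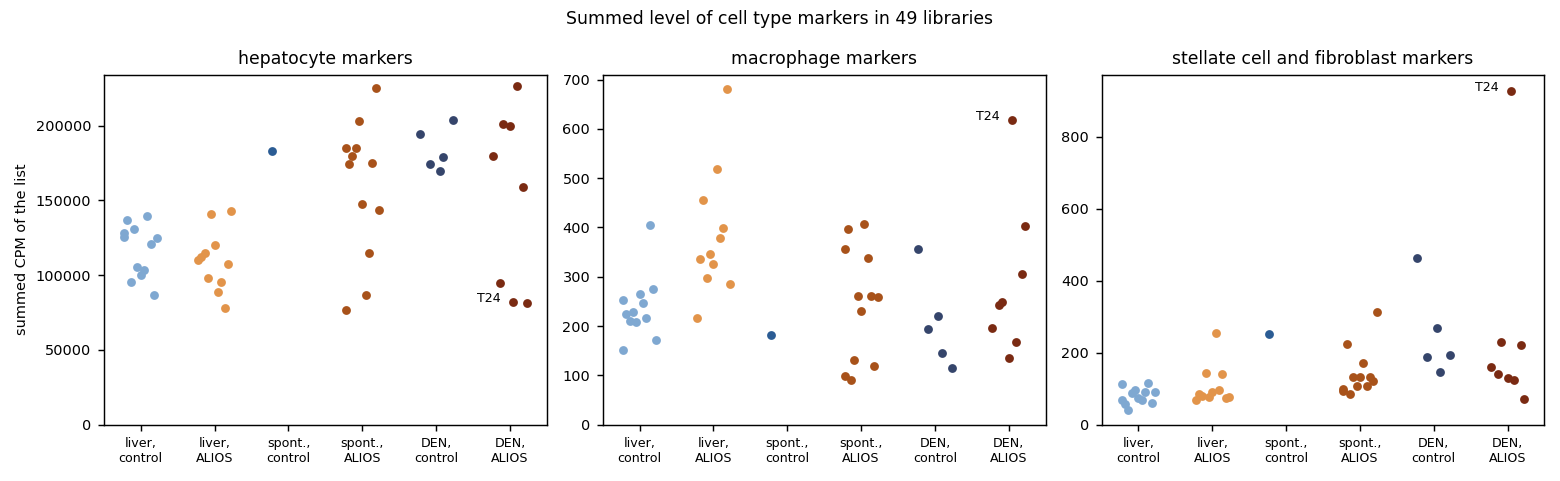
Summed level in CPM of hepatocyte, macrophage and stellate cell markers in every library, in 6 groups, with T24 labelled. T24 is the highest DEN tumour for macrophage (618 CPM) and stellate cell (928 CPM) markers and among the lowest for hepatocyte markers (81758 CPM).

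For diet in DEN tumours 0 of 56 markers tested were called by edgeR, with 4 at an unadjusted p under 0.05, and DESeq2, limma voom, the exact permutation test and the fit of all 49 libraries (63 tested) called 0. For DEN against spontaneous tumours edgeR called 0 of 56, with 5 at an unadjusted p under 0.05, DESeq2 and limma voom called 0 and the fit of all 49 libraries 1 of 63. In DEN tumours against liver 40 of 57 markers tested were called, 25 higher and 15 lower, beside 62.9% of all genes called and 35.4% called higher. By edgeR 6 of 15 macrophage markers rose and 6 fell, with Cd14 at 3.10 (SE 0.27) and the scavenger receptor Cd163 at -2.96 (SE 0.43). Of 10 hepatocyte markers 3 rose and 5 fell (6 with RLE factors), with the urea cycle gene Ass1 at -2.19 (SE 0.23), and of 7 stellate cell and fibroblast markers 5 rose and 1 fell, with collagen Col1a1 at 3.90 (SE 0.63). Endothelial markers rose in 4 of 6 cases and fell in 1, and cholangiocyte markers rose in 1 of 5 (Sox9, 0.81, SE 0.26). T cell markers rose in 4 of 5 and fell in 1 (Cd4, -1.27, SE 0.30). In liver alone only 3 of these 5 passed the filter, so no conclusion is drawn from 4 of 5. The summed T cell level had a median of 3.91 CPM in control-diet livers and 3.825 CPM in control-diet DEN tumours. On ALIOS it was 6.16 CPM in livers and 6.98 CPM in DEN tumours. Of neutrophil markers 1 of 2 tested fell (Retnlg, -0.89, SE 0.39). Of B cell markers 0 of 4 and of adipocyte markers 0 of 1 were called by edgeR, DESeq2 or limma voom, and 0 had an unadjusted p under 0.05. The markers named here were picked with their values known.

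The pancreas and kidney lists bear on genes known from those organs. Of pancreas acinar markers 1 was tested, the elastase Cela1, which rose by 0.44 (SE 0.18) by edgeR and was not called by limma voom, and the list summed to a median of 66.8 CPM (44.2 to 91.8) in control-diet livers and 57.2 CPM (52.0 to 72.0) in control-diet DEN tumours, with Cela1 the most abundant in each group. On ALIOS it summed to a median of 41.6 CPM (18.4 to 58.8) in livers and 62.9 CPM (33.2 to 190, T24 the highest) in DEN tumours. The part of acinar cells in the levels of Spink1, a gene of the acinar pancreas, was not tested. Of kidney markers 1 was tested, the ion transporter Slc12a1, which was called higher. No kidney marker passed the filter in liver alone, so this one was tested only with tumours included. Its fitted log2 fold change of 9.88 (SE 0.61) is set against livers near 0 and does not measure the size of the rise. The list summed to 0 to 0.108 CPM in control-diet livers, 0 to 5.83 CPM in ALIOS-diet livers, 4.73 (T21) to 18.6 (T17) CPM in control-diet DEN tumours and 0.0355 (T24) to 15.96 (T16) CPM in ALIOS-diet DEN tumours. In ALIOS-diet livers Kap was the most abundant, and N22 (5.83 CPM), N21 (3.52) and N23 (2.61) were above the others, which were at 0.236 CPM or below. In control-diet DEN tumours 4 of the 6 kidney markers, Kap, Slc34a1, Umod and Slc22a6, were at 0 in every library, and Slc12a1 was the most abundant.

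Over the 49 libraries, which fall into livers and tumours and share that split, each gene's nearest profiles by Pearson correlation of log2 CPM are given as a description. For Spink1 they were Krt20 (0.96), B4galt6 (0.96) and Plch1 (0.96), and for Tmem86a they were the apolipoprotein gene Apoa4 (0.95), Tmem45b (0.92) and Gprc5b (0.91). For S100g they were Arhgef2 (0.88), Cgref1 (0.87) and Dcbld1 (0.86), and for Fam46a they were Tbc1d2b (0.93), D1Ertd622e (0.91) and Rbfox2 (0.91). These 4 genes, all called higher in DEN tumours, had nearest profiles at 0.86 or above. For Rgs2 they were the lymphotoxin gene Ltb (0.88), an unnamed gene (0.85) and Mfi2 (0.85), for Limch1 Rims4 (0.85), Angpt1 (0.83) and Krt23 (0.83), and for Fam83a the lipoprotein receptor Vldlr (0.84), Hr (0.84) and Sprr1a (0.82). Arhgap10, with Cenpw (0.62), Slc39a5 (0.61) and Mogat1 (0.61), and Setbp1, with Eps8 (0.66), Gas6 (0.62) and Acpp (0.61), had no profile as near. For Cspg5 they were Serpina1e (0.74), Mup21 (0.73) and an unnamed gene (0.71). Among the 10 genes themselves, the nearest were Spink1 and Tmem86a (0.91), Tmem86a and S100g (0.86) and Spink1 and S100g (0.84), while Cspg5 was negative with the other 9, lowest with Fam83a at -0.56.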

How the data were processed

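Values are raw read counts per gene, deposited by the authors. The libraries were stranded Illumina mRNA libraries with 100 bp paired-end reads, aligned with STAR 2-pass to mm10 and counted with HTSeq over Gencode M6 exons (versions and strand option not stated). T1 was left out, since it holds kidney transcripts. Each comparison used edgeR 4.0.16 in R 4.3.3 (filterByExpr, TMM, quasi-likelihood test, Benjamini-Hochberg 0.05) on the groups compared. Diet in non-tumour liver chose the members and gives ranks and fold changes only. Log2 CPM used a prior count of 2. Alternatives were RLE factors, DESeq2 1.42.0, limma 3.58.1 voom, no filter beyond 1 count, 1 fit of 49 libraries, T1 put back, each library left out, and, for diet in DEN tumours, a two-sided exact permutation test. Python 3.11.15, numpy 2.4.6, pandas 2.3.3 and matplotlib 3.10.9 drew figures and read annotation. The scripts were tested on simulated data. There were 10 lists of relatives and 11 of cell type markers, and genes named were all 10 members, up to 3 genes per list by smallest p, 3 nearest profiles per member and the neighbours of the last-ranked member. The result of 1 list of relatives is left out, since it needs an item withheld for evaluation. Members and lists were chosen with earlier results of these data known.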

Additional observations from a re-analysis of the deposited data

Results flagged for a closer look

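In the control-diet DEN tumours T21 lay far below the other 4 tumours for 3 genes: Spink1 at 8.09 CPM, Fam46a at 33.0 CPM and Rgs2 at 18.2 CPM. This was 3 of 20 groups examined, and chance alone picks out about 1 in 20 groups. The 3 values come from 1 library and are not independent. Without T21 the log2 fold change of Rgs2 for diet in DEN tumours was -1.79, with an edgeR adjusted p of 0.261.

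T1, the library left out for its kidney transcripts, was above the highest control-diet liver for 7 of the 10 genes: Spink1 at 359 CPM, Tmem86a at 31.7, Arhgap10 at 36.4, Limch1 at 24.3, S100g at 79.3, Setbp1 at 6.64 and Rgs2 at 10.1 CPM. T1 was on the ALIOS diet, and against ALIOS-diet livers its Tmem86a was below their median of 32.2 CPM and its Rgs2 below their highest of 10.5 CPM. T7, the 1 spontaneous tumour on the control diet, in no comparison but part of the fit of all 49 libraries, was above the highest control-diet liver for 7 genes: Spink1 at 68.6 CPM, Tmem86a at 53.3, Limch1 at 1.97, Fam83a at 10.3, S100g at 0.753, Fam46a at 32.8 and Rgs2 at 7.56 CPM.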

How the results depend on the processing

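Counts were lowest for S100g, at 0 in N9, 1 in N5, N6 and N7 and at most 12 in any control-diet liver, and the lowest count of Spink1 and of Setbp1 there was 4, so fold changes in liver rest on few counts for these genes, and the median distance from a member's log2 fold change for diet in DEN tumours to its 95% bound was 1.12. Over all settings 172 of 190 member values for diet in DEN tumours, 161 of 180 for DEN tumours against liver and 247 of 260 for DEN against spontaneous tumours kept their direction and side of the threshold. The cause was not tested for any value below.

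Genes called for diet in DEN tumours, 2 with edgeR, were 155 with DESeq2, 1 with no filter, 296 with all 49 libraries in 1 fit and 0 by the exact permutation test, and leaving out 1 tumour gave 0 to 19. Members called were 1 (Rgs2, adjusted p 0.0224) in the 49-library fit and 0 to 0 on leaving out 1 tumour. For DEN against spontaneous tumours, 0 with edgeR, the count was 75 with DESeq2 and 403 with all 49 libraries, where 1 member was called (Rgs2, adjusted p 0.0369), and 0 to 15 on leaving out 1 tumour. The sign turned for Cspg5 for diet in DEN tumours with RLE factors (0.0032) and DESeq2 (0.010), for Cspg5 in DEN tumours against liver with limma voom (-0.40), for Spink1 between DEN and spontaneous tumours with limma voom (0.12), and for Arhgap10 there with T1 put back (-0.59).

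On leaving out 1 library the sign turned for diet in DEN tumours in Spink1 (-0.35 to 0.14), Limch1 (-0.43 to 0.12) and Cspg5 (-0.96 to 0.27), for DEN tumours against liver in Setbp1 (-0.41 to 0.0702) and Cspg5 (-0.40 to 0.20), and between DEN and spontaneous tumours in Spink1 (-0.32 to 0.14), Fam83a (-0.0297 to 0.44) and Fam46a (-0.37 to 0.0056).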
